A study of Mus musculus with 12 samples.

Results

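The probes described here are those of a mouse microRNA (miRNA) panel that are directed at miRNAs of the Dlk1-Dio3 imprinted locus. They were chosen by name, as the mouse miRNA records whose miR number is among 41 numbers assigned to this locus, and no measured value entered the choice. All 41 numbers had a record, and 51 of the 566 mouse miRNA records of the panel, or 9.01%, were members, out of 652 records of any kind. The panel was used to profile Kupffer cells, which are macrophages resident in the liver, sorted from Balb/C mice around partial hepatectomy, in which part of the liver is removed. The 12 samples were 3 taken before surgery and 3, 2 and 4 taken at days 1, 3 and 7 after it, each a pool of cells from 5 animals per the labels, a figure that the series text itself queries. No per-sample value was analysed here, so the comparisons between these times were not made. What follows concerns the design of the probes and gives no level of any miRNA in these cells. A design has neither replicates nor sampling error, and no test was made.

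An miRNA is cut from a hairpin precursor whose 5p and 3p arms can each yield a mature strand, and its seed, taken here as bases 2 to 8 from the 5′ end, chiefly sets which mRNAs it pairs with. The Dlk1-Dio3 locus is imprinted: the protein-coding genes Dlk1, Rtl1 and Dio3 are expressed from the paternal chromosome, and the noncoding RNAs Meg3, Rian and Mirg, together with the miRNAs, from the maternal one. Rtl1 is a gene derived from a retrotransposon, and several miRNAs are made from RNA antisense to it and can therefore pair with its mRNA along their whole length. The large miRNA cluster of the locus is prominent in the embryo, in neurons and in the placenta, and is known for a role in the metabolic adaptation of the liver at birth. Many of its miRNAs resemble each other and are thought to stem from repeated local duplication.

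The members most alike in sequence are shown first, followed by a pair from the next level of resemblance, miR-379 and miR-411. In each pair the targets differ both in the seed and after it. Each target is written as DNA from the 5′ end, as in the panel definition, with the seed in capitals.
miR-376a: aTCGTAGAggaaaatccacgt
miR-376b: aTCATAGAggaacatccactt
miR-376c: aACATAGAggaaatttcacgt
miR-300: tATGCAAGggcaagctctcttc
miR-381: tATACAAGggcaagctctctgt
miR-543: aAACATTCgcggtgcacttctt
miR-495: aAACAAACatggtgcacttctt
miR-379: tGGTAGACtatggaacgtagg
miR-411: tAGTAGACcgtatagcgtacg

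When targets were lined up at the 5′ end without gaps, 5 pairs of members differed by 5 bases or fewer. Each substitution gives the base of the target named first, its position counted from 1 at the 5′ end, and the base of the partner. miR-376b and miR-376a differed at 3 of 21 bases, A4G, C13A and T20G. miR-376c differed from miR-376a at 4 bases, A2T, A4G, T14A and T16C, and from miR-376b at 5 bases, A2T, A13C, T14A, T16C and G20T. The 3 miR-376 targets thus carried 3 different seeds. miR-300 and miR-381 differed at 3 of 22 bases, G4A, T21G and C22T, and miR-543 and miR-495 at 4 of 22, T6A, T7A, G9A and C10T. In the former pair 16 bases in a row, from base 5 to base 20, were identical. In the latter the last 12 bases were. The next 5 pairs were tied at 7 mismatches, though over 19 bases for miR-380-3p with miR-758 and over 21 or 22 for the others. The pair shown above, miR-379 and miR-411, differed at 7 of 21 bases, of which G2A lay in the seed. All 5 pairs at 5 mismatches or fewer had different seeds, as any pair of members must, because the 51 members had 51 different seeds. Among pairs of the other mouse targets at the same limit, 48 of 175, or 27.4%, had different seeds. Those pairs include some at 1 or 2 mismatches, of which the members had none, so the 2 sets of pairs are not alike. No member was within 5 mismatches of a target outside the set.

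The strictest resemblance on the panel, a single mismatch, was absent from the members. At most 1 mismatch to any other mouse target was found for 0 of 51 members and for 51 of the other 515 mouse targets, or 9.90%. The fewest mismatches that separated a member from any other mouse target ranged from 3 to 11 with a median of 8, and the median was also 8 for the others. Mismatches were counted over the shorter target and not scaled to its length, so a short target can count as closer. At 4 mismatches or fewer a partner existed for 7 members, or 13.7%, against 26.8% of the others. These 7 were the miR-376 targets, miR-300, miR-381, miR-495 and miR-543. For 27 of the 51 members the closest targets, ties included, held another member. Members made up 8.85% of the targets available, but this is the share for a single closest target. Ties gave some members several, such as miR-667 with 6. No target stood for more than 1 miRNA: the 9 joint records of the panel included 0 members.

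The match of each target to RefSeq miRNA sequences of the assembly GRCm38.p6 gave its place in the genome. All 51 had a single place, on chromosome 12 and on the plus strand, and all 43 of their hairpin genes lay between Dlk1 and Dio3 in the RefSeq gene order, so the name of the locus fits every member. The targets ran from miR-770-5p to miR-410 over 180.1 kb (chr12:109563710-109743784). The gaps between neighbouring member hairpins, measured between the ends of their targets, had a median of 914.5 bases, and 21 of the 42 were under 1 kb. With a gap of more than 10 kb taken as a break, the member hairpins formed 4 clusters of 1, 9, 2 and 31 hairpins. Panel records of the locus outside the chosen numbers, named further below, were not counted. Among them, miR-673-5p and miR-673-3p lie between the first 2 clusters and would join them at this limit (chr12:109572004-109572066). miR-882 lies between the third cluster and the fourth. Gene spans were the only annotation used for hosts, so exons and introns are not assigned.

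The first cluster was the hairpin of miR-770-5p and miR-770-3p, inside the span of Meg3, the maternally expressed noncoding RNA at the start of the locus. The second followed after 16517 bases and lay inside the RefSeq span of Rtl1. Its 12 records were, in order, miR-493, miR-337-5p, miR-337-3p, miR-540-5p, miR-540-3p, miR-665, miR-431, miR-433, miR-127, miR-434-5p, miR-434-3p and miR-136. They covered 15.1 kb (chr12:109580283-109595352). Of these, miR-431, miR-433, miR-127, miR-434 and miR-136 are known as the miRNAs antisense to the Rtl1 transcript. The third cluster held miR-341 and miR-370, which are 6728 bases apart inside the span of Rian, a noncoding RNA that also hosts many small nucleolar RNAs.

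The fourth cluster, known as the miR-379 to miR-410 cluster, began 90738 bases further on, the largest gap of the set, and packed 35 of the 51 records into 34.7 kb (chr12:109709065-109743784). The records between Rian and Mirg came first. These were miR-379, miR-411, miR-299, miR-380-5p, miR-380-3p, miR-323-5p, miR-323-3p, miR-758, miR-329, miR-494, miR-679, miR-666-5p, miR-666-3p and miR-543. miR-495, miR-667, miR-376c, miR-376b, miR-376a, miR-300, miR-381, miR-487b, miR-539, miR-382, miR-134, miR-668 and miR-485 came next. miR-134 is known for its role at dendritic spines of neurons. The last 8 records lay inside the span of Mirg and were miR-154, miR-496, miR-377, miR-541, miR-409-5p, miR-409-3p, miR-412 and miR-410. The smallest gap of the set, 112 bases, separated miR-668 from miR-485.

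The members most alike in sequence were also close in the locus. Of the 5 pairs at 5 mismatches or fewer, 4 came from hairpins next to each other in the order of members, whereas 4.63% of all 1275 member pairs did. The pairs are not separate cases, because the miR-376 targets make up several of them. The hairpin of miR-654, outside the chosen numbers, lies between those of miR-376c and miR-376b. miR-376b and miR-376a were 295 bases apart (chr12:109723508-109723528 and chr12:109723824-109723844), and miR-376c and miR-376b 717 bases. miR-543 and miR-495 were 1469 bases apart, and miR-300 and miR-381 2485 bases (chr12:109724363-109724384 and chr12:109726870-109726891). The remaining pair, miR-376c and miR-376a, had miR-376b between them. Of the 5 pairs tied at 7 mismatches, 2 were neighbours, namely miR-379 and miR-411, 1104 bases apart, and miR-299 and miR-380-3p, 1144 bases apart. The other 3 were not. miR-380-3p and miR-758 were 994 bases apart with another member hairpin, that of miR-323, between them. miR-382 and miR-154 were 4635 bases apart, and miR-329 and miR-377 26990 bases.

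Seeds were seldom shared. The 51 members had 51 different seeds, so 0 of them shared a seed with another member, and 4, or 7.84%, shared one with a mouse target outside the set. Among the other 515 mouse targets 167, or 32.4%, shared their seed with some mouse target. The 4 members and their partners are shown because a seed in common is what could make a member and a miRNA from elsewhere in the genome pair with the same mRNAs.
miR-329: aACACACCcagctaaccttttt
miR-362-3p: aACACACCtgttcaaggattca
miR-495: aAACAAACatggtgcacttctt
miR-1192: aAACAAACaaacagaccaaatt
miR-485: aGAGGCTGgccgtgatgaattc
miR-1962: aGAGGCTGgcactgggacacat
miR-412: tTCACCTGgtccactagccg
miR-1983: cTCACCTGgagcatgttttct

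All 4 members lay in the fourth cluster, which held 35 of the 51 members. Beyond the seed, miR-485 and miR-1962 were identical in their first 10 bases and miR-495 and miR-1192 in their first 9. None of the 4 partners was a record of the locus. With the shorter seed of bases 2 to 7, 8 members, or 15.7%, shared a seed, all with targets outside the set and still 0 with each other. The share among the other mouse targets is not given here for this shorter seed. The additional members were miR-154 with miR-872, miR-539 with miR-706, miR-770-5p with miR-767 and miR-431 with miR-669e, and miR-879 joined miR-485.

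A seed read from a fixed base misses targets whose 5′ ends are shifted by 1 base. In a comparison chosen after seeing the data, the seeds of 5 members occurred at bases 1 to 7 or 3 to 9 of another mouse target, in 7 pairs, and 0 of the partners was a member. The search was made for members only. No share among the other mouse targets is therefore available to set beside these counts. The seed of miR-543 made up the first 7 bases of miR-181a, of miR-181c and of the joint target of miR-181b and miR-181d. miR-181 is a family known for its role in lymphocyte development. The capitals below mark the stretch in common.
miR-543: aAACATTCgcggtgcacttctt
miR-181a: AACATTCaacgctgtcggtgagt
miR-181c: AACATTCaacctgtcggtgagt

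The other shifted pairs were miR-300 with miR-1931, miR-370 with miR-683 and miR-434-3p with miR-2183, in which the seed of the member again began the partner, and miR-377 with miR-342-3p, in which it began at base 3. After the shared bases miR-543 and the miR-181 targets had different sequences, as the lines above show. miR-300 and miR-1931 had 10 bases in a row in common.

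Stretches shared at any offset were searched as well, since they need not start at the 5′ end. Runs of 10 or more identical bases joined 5 pairs of members. All 5 pairs lay in the fourth cluster, which held 35 of the 51 members, a share of members and not of pairs. In addition to miR-300 with miR-381 (16 bases), miR-543 with miR-495 (12 bases) and miR-376b with miR-376c (10 bases), these were miR-412 with miR-758 (13 bases) and miR-134 with miR-380-5p (10 bases). The last pairs had not been found by the comparison from the 5′ end, because the run sits at different positions in the partners. They are shown with the run in capitals.
miR-412: ttcACCTGGTCCACTAgccg
miR-758: tttgtgACCTGGTCCACTA
miR-134: tgtgacTGGTTGACCAgagggg
miR-380-5p: aTGGTTGACCAtagaacatgcg

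In miR-412 the run took bases 4 to 16 and in miR-758 bases 7 to 19, the end of the target. It covered bases 4 to 8 of the seed of miR-412 but only bases 7 and 8 of that of miR-758. In miR-134 the run began at base 7 and in miR-380-5p at base 2, where it took in the whole seed. Another 5 pairs joined a member to a target outside the set at this length, the longest being miR-434-5p with miR-3475 at 11 bases. In all, 13 of 51 members, or 25.5%, had a run of 10 or more bases in common with some other mouse target, against 195 of the other 515, or 37.9%. With runs of 8 or more bases there were 15 pairs of members, of which 14 lay within 1 cluster, while 52.0% of all member pairs did. Among the 14 was the pair of miR-434 arms, which come from the same hairpin and so lie in the same cluster. Runs of this length were common on the panel. They linked 44 of 51 members, or 86.3%, to some other mouse target, against 88.0% of the others. Another 76 pairs joined a member to a target outside the set. Within the fourth cluster lay 12 of the 15 pairs of members. It held 35 of the 51 members, but the share of all member pairs inside it is not given here.

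Both arms of a hairpin were on the panel for 8 of the 43 hairpins, by their names, and 1 arm for the other 35. The 8 were those of miR-770, miR-337, miR-540, miR-434, miR-380, miR-323, miR-666 and miR-409. The longest uninterrupted complement between the arms ranged from 4 bases in miR-666 to 9 in miR-409, and 9 to 15 bases separated the arms. In miR-666 it joined bases 9 to 12 of the 5p strand to bases 2 to 5 of the 3p strand. Whether such stretches pair with each other in the folded hairpin was not examined. Arms of the same hairpin could differ in composition: miR-323-5p had 72.7% GC and miR-323-3p 52.4%, and miR-337-5p had 57.1% and miR-337-3p 42.9%. Both miR-666 arms had 68.2%. The arms of miR-409 are given with their longest complement in capitals.
miR-409-5p: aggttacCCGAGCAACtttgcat
miR-409-3p: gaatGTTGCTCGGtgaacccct

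The arms of miR-434, one of the miRNAs antisense to Rtl1, differed from those of the other 7 hairpins in that they shared sequence in the same direction. They had 2 runs of 8 or more bases in common, while the longest run common to both arms was 4 to 6 bases in the other hairpins. The runs, of 8 and 9 bases, came in the opposite order in each arm. They are shown in turn, first the shorter and then the longer.
miR-434-5p: gCTCGACTCatggtttgaacca
miR-434-3p: tttgaaccatcaCTCGACTCct
miR-434-5p: gctcgactcatggTTTGAACCA
miR-434-3p: TTTGAACCAtcactcgactcct

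The longer run was the last 9 bases of miR-434-5p and the first 9 of miR-434-3p, where it included the seed, and the shorter one included the seed of miR-434-5p. How far such shared stretches affect detection of either arm was not measured.

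Most names did not say which arm was meant. Of the 51 records, 8 carried the suffix 5p and 8 the suffix 3p, and the other 35 had none. By their RefSeq match or position in the hairpin, 24 of these 35 were 3p strands, or 68.6%, and 11 were 5p strands. The 11 were miR-431, miR-136, miR-379, miR-411, miR-679, miR-539, miR-382, miR-134, miR-485, miR-154 and miR-541. In total 19 members were 5p and 32 were 3p strands, so 62.7% came from the 3p arm. Of the members equal to a RefSeq mature sequence, 63.0% were 3p strands, against 46.2% of the other mouse targets with such a match and an arm in its RefSeq name. RefSeq listed 82 mature sequences for the 43 hairpins, and 46 of them were targets of the panel.

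Of the 51 targets, 46, or 90.2%, were equal to a RefSeq mature sequence, and its RefSeq arm was that of the suffix wherever the name had one. Among the other mouse targets 75.7% were equal to one. The names miR-299 and miR-496 correspond to miR-299a-3p and miR-496a-3p in RefSeq. The remaining 5 members, miR-337-5p, miR-337-3p, miR-376c, miR-487b and miR-485, lay within the hairpin of their own name. For both arms of miR-337 the ends of the target differed from the RefSeq mature strand. The panel's miR-337-5p starts 3 bases before the RefSeq strand and ends 4 bases before it, and its miR-337-3p starts 1 base before and ends 2 bases before. The seed read from the panel target is therefore not that of the RefSeq strand, as the lines show with each seed in capitals.
miR-337-5p on the panel: gAACGGCGtcatgcaggagtt
miR-337-5p in RefSeq: cGGCGTCAtgcaggagttgatt
miR-337-3p on the panel: tTCAGCTCctatatgatgcct
miR-337-3p in RefSeq: tCAGCTCCtatatgatgccttt

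Neither RefSeq seed of miR-337 occurred in a mouse target of the panel, nor did either panel seed occur in a second one. With either choice of ends, 4 members shared a seed of bases 2 to 8. The 3p strand of the panel maps to chr12:109585849-109585869 and the 5p strand to chr12:109585815-109585835.

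The targets were of ordinary miRNA length, with a median of 22 bases, and 45 of 51, or 88.2%, had 21 to 23 bases against 87.8% of the others. The extremes were miR-758 with 19 bases and miR-541 with 25. The median GC content was 50.0%, its quartiles being 44.7% and 59.1%, and that of the other mouse targets was 47.6%. Its range, 33.3% to 72.7%, lay inside the range of the others, 19.0% to 94.7%. The lowest value belonged to miR-376c and the highest to miR-770-3p and miR-323-5p.
miR-376c: aACATAGAggaaatttcacgt
miR-770-3p: cGTGGGCCtgacgtggagctgg
miR-323-5p: aGGTGGTCcgtggcgcgttcgc
miR-758: tTTGTGACctggtccacta
miR-541: aAGGGATTctgatgttggtcacact

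GC content differed along the locus. The miR-770 targets had 68.2% and 72.7% GC, the median of the second cluster was 56.5% with a range of 36.4% to 65.0%, and the pair inside Rian had 66.7% and 68.2%. The fourth cluster had a median of 47.6%, with a range as wide as that of the whole set. Within the second cluster the lowest value was that of miR-136. The 8 targets inside the span of Mirg had a median of 45.9% and ranged from 36.4% to 60.0%, the highest being miR-412.

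CpG dinucleotides, the sites of DNA methylation in mammals and otherwise depleted from their genomes, were present in 30 of the 51 targets, or 58.8%, against 33.2% of the other mouse targets. The mean was 1.00 per member and 0.489 per other target. 15 members had 1 CpG and 12 had 2. miR-411 had 3, miR-323-5p had 4 and miR-341 had 5, which was also the number in 2 targets outside the set and the highest of any mouse target. In miR-341, 4 of the 5 lay in a repeated stretch of 4 letters, CGGT, which was searched on the strand of the target only and whose copies did not overlap. They occurred in 28 of the 566 mouse targets, or 4.95%, and 3 times or more in miR-341 alone. The copies are in capitals.
miR-341: tCGGTcgatCGGTCGGTCGGT

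The first base, which is held by the Argonaute protein and is often U in miRNAs, was T in the DNA notation in 20 members, or 39.2%, and A in 20. G came first in 8 and C in 3. Among the other mouse targets 45.6% began with T and 27.8% with A.

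The list of numbers did not exhaust the locus. RefSeq had 61 miRNA genes from Dlk1 to Dio3, of which 43 had a member record. A further 15 mouse records, from 12 genes, belonged to the locus by RefSeq but not to the list. These were miR-1188, miR-1193, miR-1197, miR-1906, miR-3072, miR-369-3p, miR-369-5p, miR-432, miR-453, miR-544, miR-654-3p, miR-654-5p, miR-673-3p, miR-673-5p and miR-882. The target of miR-1906 was listed at 2 places, and each of the other 14 at 1. With them the locus had 66 records on the panel and 55 of its 61 miRNA genes a record. The genes matched to no record here were Mir1247, Mir299b, Mir3070a, Mir3070b, Mir3071 and Mir3544. Some of these records were the targets closest to a member. miR-1193, from the fourth cluster, was the closest mouse target to miR-154 at 6 mismatches, and miR-369-3p the closest to miR-323-3p at 7. With these records counted, the closest targets of 31 of the 51 members, ties included, held a record of the locus. Such records made up 11.5% of the targets available, which is again a share for a single target and not for several tied ones.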

How the data were processed

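The file used is the reporter library definition of the mouse miRNA panel for the nCounter assay, which counts colour-coded reporters. Per the file headers it has 8 columns, of which the class, target sequence, name and accession were read, and 0 hold values of a sample. Per the labels' protocols, 100 ng of total RNA from pooled sorted cells was hybridised with this panel. No source used here gives a genome build or how the reporter counts of the samples were normalized.

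Members were found from the miR numbers, and these numbers and all comparisons were chosen with earlier results of these data known. Every member is named; sequences are shown for members with a shared seed, a close partner or an extreme of GC content or length, and, chosen after their values were seen, for miR-134, miR-337, miR-341, miR-380-5p, miR-409, miR-411, miR-434 and miR-379. Targets were compared without gaps over the shorter of 2 targets, and matched by identity to RefSeq mature and hairpin miRNAs (GRCm38.p6, U read as T). Clusters, shared runs and shifted seeds were defined after seeing the data. The searches were tested on simulated sequences. Python 3.11.15 was used.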

Additional observations from a re-analysis of the deposited data

How the results depend on the processing

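No paired analysis was possible because the values of the pools were not analysed, and for the same reason no replicate could be left out. Of 14 alternatives to 10 results, 10 left the value within 1.5 times of the reported one. These are not all separate checks. The 51 members have 51 names and 51 sequences, so counting either changes nothing. The members sharing a seed with any mouse target were also those sharing one outside the set. With a seed of bases 2 to 7 in place of 2 to 8, 8 members shared a seed in place of 4, all of them only with targets outside the set. With runs of 8 bases in place of 10, 15 member pairs were joined in place of 5, and with a gap of 5 kb in place of 10 kb there were 7 clusters in place of 4, both chosen after seeing the data. The count of 0 near-identical pairs was the same with at most 2 mismatches and with 1 edit when as many as 2 bases of the 5′ end could be skipped. Taking all locus records of RefSeq gave 66 records in place of 51. Arms assigned by position gave 7 hairpins with both arms in place of 8, because the RefSeq hairpin sequences had no entry for miR-666. Cross-hybridisation was not measured.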

Other observations

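The number that follows each name in the panel definition was 0 for 50 members and 0.009 for miR-543. The file does not say what it stands for.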
